A study of Mus musculus with 54 samples.

Results

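The genes described here are Mcm2, Mcm3, Mcm4, Mcm5, Mcm6 and Mcm7, which encode the subunits of the MCM replication helicase, and Pcna, which encodes the sliding clamp of DNA polymerases. They are 7 of the 24346 gene rows of the deposited table and were chosen by name with results of these data already in view. The measured values that led to the choice are not recorded. The members' levels, folds and calls are therefore given as a description and not as independent evidence. All 7 passed the filter on low values, with a mean of at least 1 FPKM (fragments scaled to transcript length and to the size of the library) in at least 1 of 18 groups.

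RNA of mouse livers was sequenced in 3 genotypes at 6 times of day, with 3 livers in each of the 18 groups. RE livers came from mice whose core clock gene Bmal1 (Arntl) was disrupted by a floxed STOP and that also carried Syt10-Cre, which restores it in the suprachiasmatic nucleus, the seat of the central clock in the brain. KO livers came from mice with the same floxed STOP and no Cre, and WT livers from mice with Bmal1 in every tissue. By this design RE and KO livers share the loss of Bmal1 in the liver, and they differ in the central clock. Where else the Syt10 promoter drives Cre is not stated in the labels, nor are age, sex or feeding. Times are zeitgeber times (ZT), in hours after lights on, at ZT0, ZT4, ZT8, ZT12, ZT16 and ZT20. The labels do not say that the 3 libraries of a group came from separate animals, so p-values measure the spread between these libraries.

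In cells preparing to divide, the MCM subunits are loaded as a ring around DNA at replication origins, with help from the origin recognition complex, Cdc6 and Cdt1. The ring becomes active when Cdc45 and the GINS complex join it, and it then unwinds DNA ahead of the polymerases. Pcna encircles DNA behind it, is loaded by replication factor C, and holds polymerases and repair enzymes in place. Genes of this machinery are textbook targets of E2F factors, which are released from RB proteins late in G1. Most hepatocytes of an adult liver are out of the cell cycle.

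Promoter windows of 300 bases, reaching from 250 bases before to 50 bases after the RefSeq start site, were found for 6 of the 7 members (mm10, GRCm38.p6). Mcm4 had none in the table, and Mcm7 had 2. The windows are shown because the members moved together and because an E2F motif is known from this gene class. The 4 E2F motifs searched, on both strands, were TTTCCCGC, TTTCGCGC, TTTGCCGC and TTTGGCGC. They were present in windows of Mcm3, Mcm5, Mcm6 and Mcm7, and in 2.26% of 32851 windows of the same length genome-wide. The windows of Mcm2 and Pcna, which were higher in RE and KO like the others, held none. The window of Mcm10, a gene outside the members, held no whole motif. It ended in TTTGGCG, all but the last letter of TTTGGCGC, and the base beyond its end was not read. The windows of the 4 genes with a motif follow, then that of Mcm10. Each is written 5′ to 3′ on the gene's own strand, with the letters of an E2F motif in capitals.
Mcm3 promoter, chr1:20820263-20820562, minus strand: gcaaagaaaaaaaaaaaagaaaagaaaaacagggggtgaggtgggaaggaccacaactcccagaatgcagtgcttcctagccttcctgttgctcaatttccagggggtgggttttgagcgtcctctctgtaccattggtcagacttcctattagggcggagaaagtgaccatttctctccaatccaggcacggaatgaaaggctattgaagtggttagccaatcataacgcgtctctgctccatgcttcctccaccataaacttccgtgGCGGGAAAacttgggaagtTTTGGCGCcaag
Mcm5 promoter, chr8:75109259-75109558, plus strand: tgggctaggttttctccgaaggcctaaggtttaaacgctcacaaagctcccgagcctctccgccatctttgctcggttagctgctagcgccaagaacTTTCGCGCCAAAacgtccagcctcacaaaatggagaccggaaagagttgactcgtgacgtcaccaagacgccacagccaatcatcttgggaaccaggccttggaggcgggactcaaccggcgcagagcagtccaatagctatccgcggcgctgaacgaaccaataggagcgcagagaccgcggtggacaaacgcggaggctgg
Mcm6 promoter, chr1:128359656-128359955, minus strand: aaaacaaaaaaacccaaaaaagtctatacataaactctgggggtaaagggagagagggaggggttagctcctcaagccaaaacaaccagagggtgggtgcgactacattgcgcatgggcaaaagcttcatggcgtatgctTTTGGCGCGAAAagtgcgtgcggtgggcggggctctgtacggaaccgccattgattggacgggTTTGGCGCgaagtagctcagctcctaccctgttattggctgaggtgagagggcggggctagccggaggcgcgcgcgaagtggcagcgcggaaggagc
Mcm7 promoter, chr5:138171834-138172133, minus strand: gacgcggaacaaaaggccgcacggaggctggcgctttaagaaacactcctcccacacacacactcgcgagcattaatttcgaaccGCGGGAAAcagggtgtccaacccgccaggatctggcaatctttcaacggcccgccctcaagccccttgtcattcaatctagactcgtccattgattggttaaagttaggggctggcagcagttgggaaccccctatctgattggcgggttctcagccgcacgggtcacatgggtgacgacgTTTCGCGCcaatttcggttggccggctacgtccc
Mcm10 promoter, chr2:5012742-5013041, minus strand: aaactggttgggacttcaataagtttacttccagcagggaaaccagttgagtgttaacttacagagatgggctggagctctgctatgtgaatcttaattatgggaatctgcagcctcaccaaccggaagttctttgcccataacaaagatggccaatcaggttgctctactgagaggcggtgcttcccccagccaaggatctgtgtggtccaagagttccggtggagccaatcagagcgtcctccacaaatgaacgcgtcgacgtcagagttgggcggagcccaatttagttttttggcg
In Mcm5 the capitals cover TTTCGCGC read as printed and TTTGGCGC read on the other strand, which overlap. Mcm6 had a like overlapping pair and a further TTTGGCGC that began at position -47 from its start site. In Mcm7 the motifs began at positions -165 and 16 from the start, and in Mcm3 at 19 and 38. The E-box CACGTG, the letters best known for binding Bmal1 with Clock, was in none of the 6 genes' windows and in 7.15% of all windows. CCAAT was in the windows of all 6 genes and in 37.4% of all windows. The CHR motif (TTTGAA or TTCGAA), known from genes of late cell cycle stages, was in windows of 2 members, Mcm2 and Mcm7, and in 19.2% of all windows. A match is a description of letters, not of bound sites.

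Facts of the whole series bear on these values in a few ways. Deposited FPKM summed to between 572995 and 751399 per library, and read depth is not given; the steps of low values placed each library between 0.727 and 1.39 of the median depth. Median relative depth was 1.03 in RE, 1.07 in KO and 0.914 in WT. Arntl averaged 11.4 ± 2.12 FPKM in RE, 12.0 ± 1.26 FPKM in KO and 4.78 ± 4.02 FPKM in WT livers (SD, n = 18 each). The floxed STOP removes no part of the gene, so a level over the whole gene does not check the genotype labels. Alb, which marks hepatocytes, was listed at 0 in 18 of 18 WT livers, in 2 RE livers and in 1 KO liver, while the other 4 hepatocyte markers (Ttr, Apoa1, Cps1 and Cyp2e1) were present throughout.

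Over the day the 6 MCM subunits stood higher in livers without Bmal1, with and without the central clock. The sum of Mcm2 to Mcm7 averaged 20.4 ± 8.74 FPKM in RE, 23.0 ± 8.54 FPKM in KO and 11.6 ± 2.07 FPKM in WT livers (SD, n = 18 each). The lowest sum was 9.25 FPKM in RE, 11.5 FPKM in KO and 8.29 FPKM in WT, and the highest was 41.0 FPKM in RE, 37.4 FPKM in KO and 14.95 FPKM in WT. The low ends therefore overlapped, and the high ends of RE and KO lay far above any WT liver. In bulk tissue, more cells that use a gene and more RNA per cell cannot be told apart.

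Mcm6, a subunit that contacts the loading factor Cdt1, differed most among the members. It ranged from 0.980 to 12.0 FPKM in RE (median 4.54), from 1.49 to 12.0 FPKM in KO (median 5.62) and from 0.952 to 3.15 FPKM in WT (median 1.82). Of 18 RE livers 11 lay above the highest WT liver, and of 18 KO livers 15 did. The ratio of mean FPKM was 2.37 for RE over WT and 3.01 for KO over WT. At ZT0 Mcm6 read 5.82, 7.95 and 12.0 FPKM in RE, 6.15, 2.31 and 2.77 FPKM in KO, and 2.10, 1.55 and 0.952 FPKM in WT. The RE livers all lay above the WT livers at that time, and 1 KO liver lay inside the RE range.

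Mcm5, which sits beside Mcm2 at the gap where the ring opens, followed with ratios of 2.15 (RE over WT) and 2.44 (KO over WT). Its range was 0.298 to 4.70 FPKM in RE, 0.382 to 4.68 FPKM in KO and 0.435 to 1.57 FPKM in WT, so the lowest livers of RE and KO lay below every WT liver. Mcm2, whose tail carries histones, ranged from 0.529 to 4.68 FPKM in RE (median 1.68), from 1.01 to 3.92 FPKM in KO (median 1.91) and from 0.521 to 1.53 FPKM in WT (median 0.966). Its ratios were 1.99 for RE over WT and 2.34 for KO over WT.

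Mcm4, which with Mcm6 and Mcm7 forms the part of the ring first found to unwind DNA alone, had ratios of 1.83 (RE over WT) and 2.09 (KO over WT). It was the subunit best separated between KO and WT: 15 of 18 KO livers lay above the highest WT liver, and 12 of 18 WT livers lay below the lowest KO liver. Mcm3, through which the ring meets the origin recognition complex in yeast, had ratios of 1.66 for RE over WT and 1.88 for KO over WT. Mcm3 ranged from 0.959 to 5.48 FPKM in RE, from 1.13 to 4.97 FPKM in KO and from 1.01 to 2.23 FPKM in WT. Mcm7 had the smallest ratios of the 6 subunits, 1.44 for RE over WT and 1.46 for KO over WT, and the highest level, 7.33 ± 1.75 FPKM in RE, 7.43 ± 1.66 FPKM in KO and 5.09 ± 0.988 FPKM in WT (SD, n = 18 each).

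**Figure D1:**
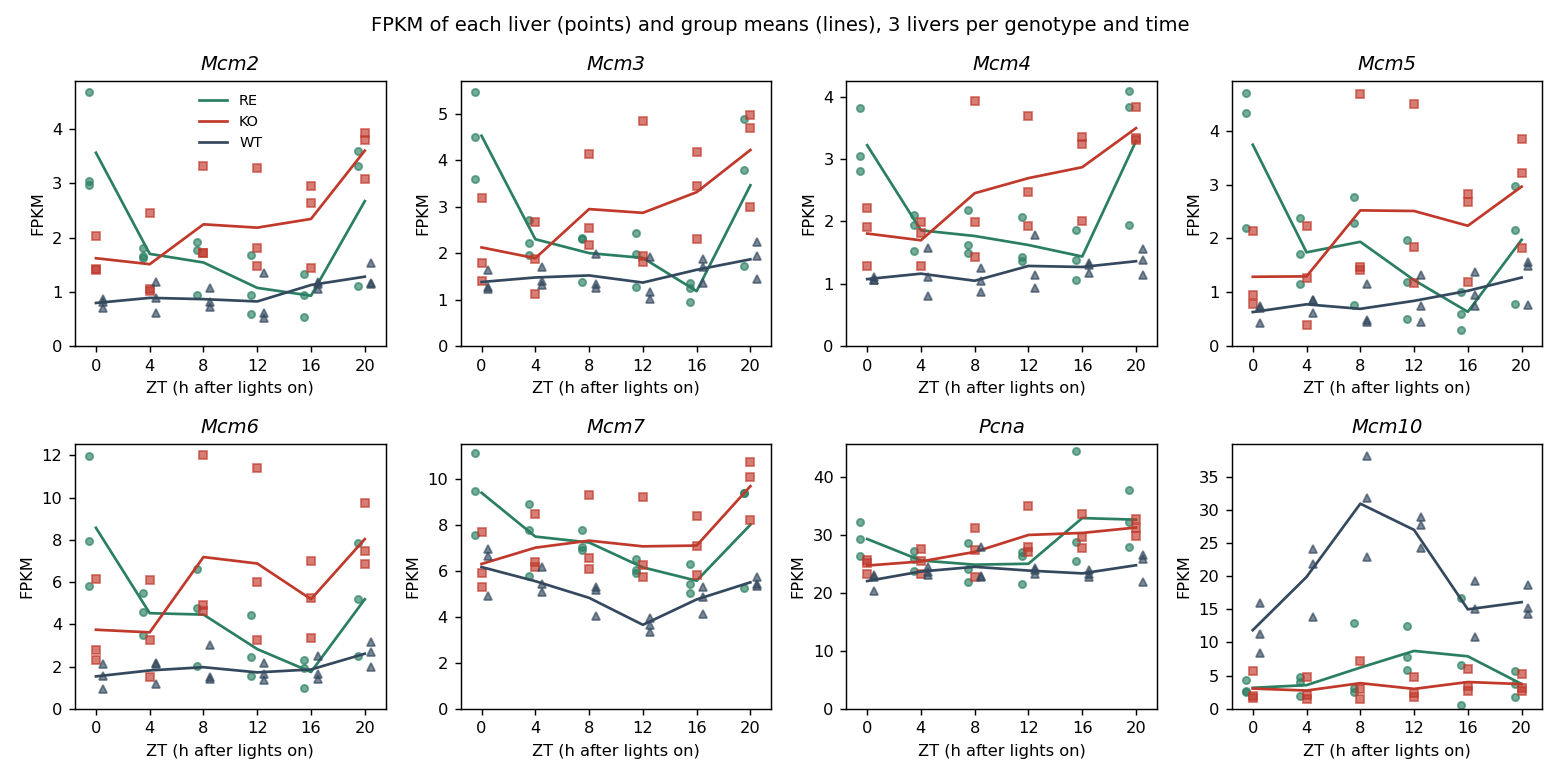
FPKM (linear axes from 0) of each liver against ZT for the 7 members and Mcm10, with RE in green, KO in red and WT in blue; points are livers and lines join the means of 3. RE lines of Mcm2, Mcm3, Mcm5 and Mcm6 are highest at ZT0 and lowest at ZT16, KO lines are highest at ZT20 except for Mcm10, and WT lines stay low except for Mcm7, Pcna and Mcm10.

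FPKM is scaled per length, so levels can be set beside each other, with a limit for Mcm7. It overlaps Cops6 by 64 bases and Ap4m1 by 421 bases, and Cops6 stood at 169 FPKM in RE, 163 FPKM in KO and 98.6 FPKM in WT. The counting of reads by strand is not given. How much such reads add to the level, ratios and share of Mcm7 was not tested. As a share of the 6 subunits' summed FPKM, Mcm7 made up 38.9% in RE, 34.3% in KO and 44.3% in WT, and Mcm6 made up 20.7% in RE, 24.0% in KO and 16.3% in WT. Mcm5 had the smallest share in each genotype, 8.36% in RE, 8.62% in KO and 7.33% in WT. In protein the helicase holds its subunits in equal numbers, and the transcripts were far from equal in each genotype.

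Pcna stood at a higher level and differed less. It averaged 28.4 ± 5.60 FPKM in RE, 28.1 ± 3.62 FPKM in KO and 23.7 ± 1.72 FPKM in WT livers (SD, n = 18 each), with ratios of 1.198 for RE over WT and 1.19 for KO over WT. Its range was 21.5 to 44.5 FPKM in RE, 22.7 to 35.0 FPKM in KO and 20.4 to 27.8 FPKM in WT. Of 18 livers, 8 in RE and 8 in KO lay above the highest WT liver, so most RE and KO livers overlapped the WT range.

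Differences were estimated with limma on log2(FPKM + 1) over all 10932 genes past the filter, as the mean of a genotype's 6 time means, and called at a Benjamini-Hochberg adjusted p under 0.05. The added 1 FPKM understates changes of low genes. Against WT, RE livers had all 7 members called higher and none lower, where 24.2% of all tested genes were called higher and 21.7% lower. Against WT, KO livers also had 7 called higher and none lower, where 22.1% of all tested genes were higher and 20.2% lower. The members' median log2 difference was 0.48 for RE minus WT and 0.63 for KO minus WT, and over all tested genes it was 0.01 for RE minus WT and 0.00 for KO minus WT. Both comparisons use the same WT livers.

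The estimates put Mcm6 first, at 0.79 for RE minus WT and 1.11 for KO minus WT (log2, SE 0.16). Mcm2, Mcm3, Mcm4 and Mcm5 lay between 0.41 and 0.52 for RE minus WT (SE 0.08 to 0.14) and between 0.56 and 0.68 for KO minus WT. Their neighbours in that order did not differ beyond these errors. Mcm7 stood at 0.44 for RE minus WT and 0.46 for KO minus WT (SE 0.07), and Pcna at 0.23 in both comparisons (SE 0.05). These 14 calls were also made with 1 library left out in each of 54 fits.

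**Figure D2:**
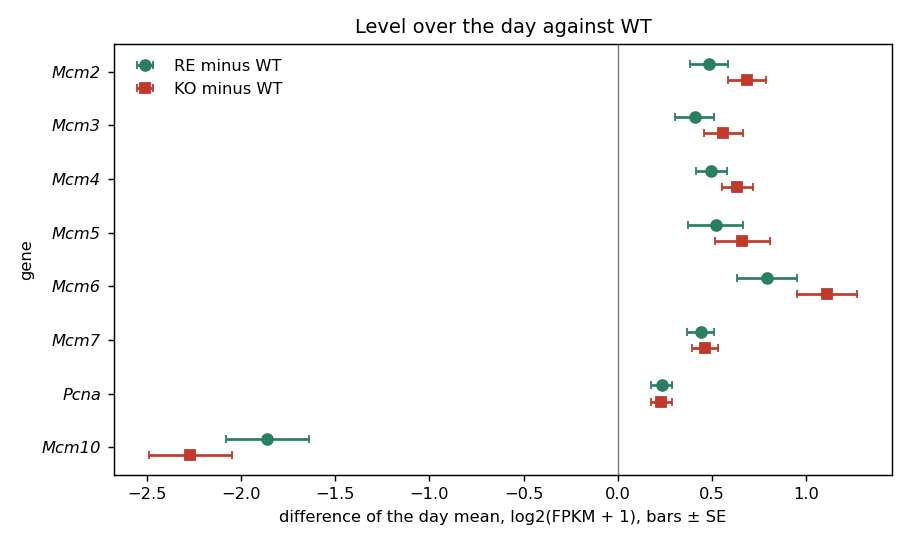
Difference of the day mean from WT on the log2(FPKM + 1) scale for RE (green circles) and KO (red squares), with bars of 1 SE; the vertical line marks no difference. The 7 members lie between 0.23 and 1.11, and Mcm10 lies at -1.86 for RE and -2.27 for KO.

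Between RE and KO livers the day means of the members were close. The log2 difference, RE minus KO, was -0.32 for Mcm6 (SE 0.16), -0.20 for Mcm2 (SE 0.10), -0.15 for Mcm3, -0.14 for Mcm4 and Mcm5, -0.02 for Mcm7 and 0.00 for Pcna. None of the 7 was called by limma, and 0 had an unadjusted p under 0.05; of all tested genes 0.0732% were called higher and 0.119% lower, and 1451 had an unadjusted p under 0.05. A missed call does not show that the levels were equal, and the close day means hid opposite differences by time. At ZT0 Mcm2 read 2.96, 3.05 and 4.68 FPKM in RE and 2.03, 1.41 and 1.42 FPKM in KO, with every RE liver above every KO liver. At ZT16 it read 0.935, 1.32 and 0.529 FPKM in RE and 1.45, 2.95 and 2.64 FPKM in KO, with every RE liver below every KO liver. The same reversal without overlap was seen in Mcm3, Mcm4 and Mcm5, and in Mcm6 at ZT16 only. The times were picked from these same values. Here and wherever the overlap of livers is described, the share of all tested genes that separate likewise was not computed.

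In RE livers the MCM subunits followed a daily course with a high around lights on and a low at ZT16, in the dark. Mcm5 averaged 3.74 FPKM at ZT0 (2.19, 4.32 and 4.70 FPKM) and 0.637 FPKM at ZT16 (0.602, 1.01 and 0.298 FPKM), a ratio of 5.87. Mcm6 averaged 8.57 FPKM at ZT0 and 1.74 FPKM at ZT16 (1.93, 2.32 and 0.980 FPKM), a ratio of 4.92. The livers of these times did not overlap in either gene. Mcm2 had a ratio of 3.84 and Mcm3 of 3.83 between the same times, also without overlap. Mcm4 was highest at ZT20 (4.09, 1.94 and 3.84 FPKM) with ZT0 next (3.81, 2.80 and 3.05 FPKM), and lowest at ZT16 (1.39, 1.87 and 1.05 FPKM). Mcm7 averaged 9.42 FPKM at ZT0 and 5.59 FPKM at ZT16, a ratio of 1.69.

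At ZT16 the RE livers were near the WT level for most subunits. Mean Mcm2, Mcm3, Mcm5 and Mcm6 were then 0.928, 1.18, 0.637 and 1.74 FPKM in RE, against 1.13, 1.64, 1.03 and 1.86 FPKM in WT. RE means of these 4 genes were above the WT means at the other 5 times. Pcna did not share this low: at ZT16 it read 28.7, 25.4 and 44.5 FPKM in RE and 23.3, 24.0 and 22.8 FPKM in WT. RE liver 2 at that time held the highest Pcna value of the series and the lowest RE values of Mcm2, Mcm3, Mcm4, Mcm5 and Mcm6. Alb was listed at 0 in this library. Its summed markers of gut epithelium (20.5 FPKM) and of lymphocytes (0.735 FPKM) were the lowest of the series. The other RE library with Alb at 0, liver 0 at ZT20, was the highest of its group for 6 members.

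A cosine of 24 h was fitted to the 6 time means. In RE livers 7 of 7 members were called rhythmic, where 46.8% of all tested genes were. Amplitudes (mean to peak, log2) were 0.69 for Mcm6, 0.55 for Mcm2, 0.54 for Mcm5, 0.50 for Mcm3, 0.38 for Mcm4 and 0.26 for Mcm7, with fitted peaks from ZT22.9 for Mcm4 to ZT1.54 for Mcm5. Pcna had an amplitude of 0.22 (SE 0.05) and an earlier peak, at ZT19.5, and it was not called when RE livers were fitted alone (adjusted p 0.0810, limma). The median amplitude was 0.50 over the members and 0.16 over all tested genes.

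In WT livers 1 of 7 members, Mcm7, was called rhythmic, where 34.8% of all tested genes were. Mcm7 averaged 6.18 FPKM at ZT0 (6.98, 6.67 and 4.90 FPKM) and 3.66 FPKM at ZT12 (3.36, 3.95 and 3.67 FPKM), without overlap. Its WT amplitude of 0.26 and fitted peak at ZT0.10 lay beside those of RE, 0.26 and ZT1.13. A test for any difference among times, in place of a cosine, did not call Mcm7 in WT. The other 6 members had WT amplitudes between 0.03 for Pcna and 0.18 for Mcm5. The added 1 FPKM lowers fitted amplitudes of low genes. In WT Mcm5 averaged 1.27 FPKM at ZT20 and 0.632 FPKM at ZT0 (ratio 2.01), without overlap. Mcm2 averaged 1.28 FPKM and 0.795 FPKM at these times (ratio 1.61), also without overlap. In Mcm3, Mcm4, Mcm6 and Pcna the WT livers of the highest and lowest times overlapped. The times were picked from these same values.

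In KO livers 0 of 7 members were called rhythmic by limma, where 0.0366% of all tested genes were; 4 members and 1301 of all tested genes had an unadjusted p under 0.05. Amplitudes lay between 0.11 for Mcm7 and 0.35 for Mcm6, and the fitted peaks between ZT14.6 and ZT18.5, in the dark. KO means of all 7 members were highest at ZT20, as were the WT means of all members but Mcm7. Mcm2 read 3.92, 3.09 and 3.80 FPKM at ZT20, above every KO liver at ZT4 (1.01, 1.06 and 2.46 FPKM). Without KO liver 1 at ZT8, which stood high in every member, Mcm4 was called (adjusted p 0.0191, limma). The livers of a group are numbered 0 to 2 as in the table.

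**Figure D3:**
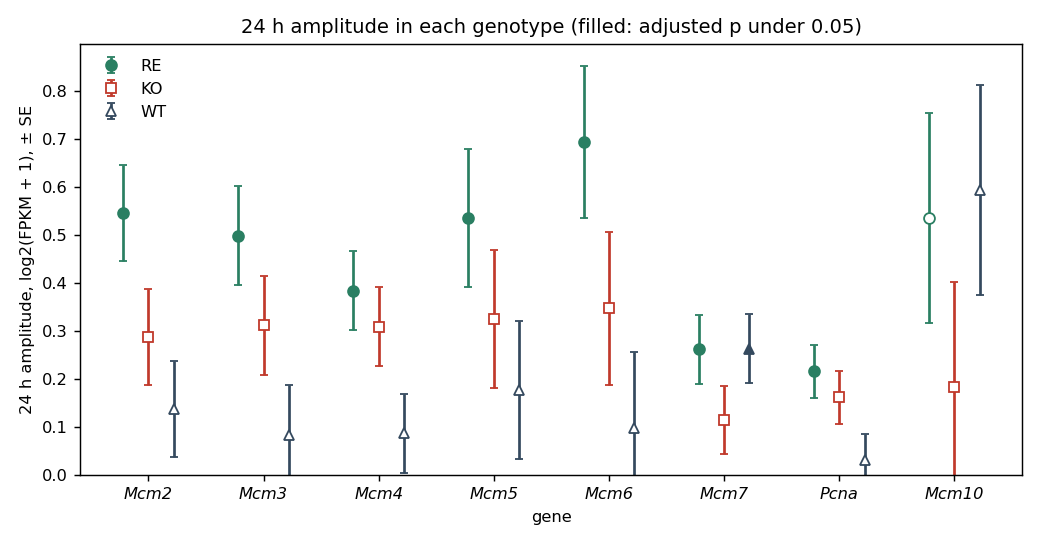
Amplitude of the fitted 24 h cosine (mean to peak, log2 of FPKM + 1) with bars of 1 SE for each member and Mcm10 in RE (circles), KO (squares) and WT (triangles); filled symbols are called at an adjusted p under 0.05. All 7 members are filled in RE, none in KO and Mcm7 alone in WT.

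The difference between rhythms was tested as such. Between RE and KO it was called for 5 of 7 members, Mcm2 to Mcm6, where 3.07% of all tested genes were called. The vector difference of the fitted cosines, RE minus KO, was 1.03 for Mcm6, 0.85 for Mcm5, 0.69 for Mcm3, 0.68 for Mcm2 and 0.54 for Mcm4 (log2), against 0.30 for Mcm7 and 0.19 for Pcna. With RE and KO fitted alone none of the 5 was called (adjusted p 0.102 to 0.146, limma), nor in a test of any difference in course (adjusted p 0.0742 for Mcm3 to 0.124 for Mcm5, limma). The Mcm5 call was also lost with no filter on low values (adjusted p 0.0684, limma) and when any 1 of 11 livers was left out (adjusted p up to 0.0842, limma). These were RE liver 2 at ZT0, livers 0 and 1 at ZT4, livers 1 and 2 at ZT12 and liver 2 at ZT16, and KO livers 1 and 2 at ZT0 and liver 1 at ZT4, ZT12 and ZT16. The Mcm6 call was lost without KO liver 1 at ZT4 (adjusted p 0.0526, limma).

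Between RE and WT the rhythm difference was called for 1 of 7 members, Mcm2 (0.55), where 14.1% of all tested genes were called. Without WT liver 1 at ZT12 it was not called (adjusted p 0.0541, limma), nor in the test of any difference in course (Mcm2, adjusted p 0.0531, limma). The sizes for the others were 0.73 for Mcm6, 0.63 for Mcm5, 0.49 for Mcm3, 0.39 for Mcm4, 0.23 for Pcna and 0.07 for Mcm7, and 6 of the 7 members had an unadjusted p under 0.05. With RE and WT fitted alone 5 were called, Mcm2 to Mcm6. The same 5 were called when KO liver 1 at ZT8 and KO liver 1 at ZT12 were left out, a setting added after the values were seen. Between KO and WT 0 of 7 were called by limma, where 9.06% of all tested genes were called, and 1 member and 2563 of all tested genes had an unadjusted p under 0.05.

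Livers of the same genotype and time differed in the members as a block. In 10 of the 18 groups a single liver was the highest for at least 6 of the 7 members, in 4 groups of RE, 4 of KO and 2 of WT. KO liver 1 at ZT8 and KO liver 1 at ZT12 were the highest of their groups for all 7. Mcm6 read 4.91, 12.0 and 4.65 FPKM in KO at ZT8 and 6.00, 11.4 and 3.26 FPKM in KO at ZT12. RE liver 1 at ZT20 was the lowest of its group for all 7, with Mcm6 at 2.48 FPKM beside 7.87 and 5.22 FPKM.

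Sums of other genes moved with some of these livers. The summed FPKM of 22 G2 and mitosis genes was 46.2 in KO liver 1 at ZT12, against 10.97 and 10.5 in its group mates, and 20.4 in KO liver 1 at ZT8, against 17.3 and 17.2. RE liver 0 at ZT8 and RE liver 0 at ZT12 were also the highest of their groups for all 7 members. Their summed G2 and mitosis genes were 18.3 FPKM at ZT8, against 8.40 and 10.05 FPKM, and 16.3 FPKM at ZT12, against 6.94 and 7.66 FPKM. In RE liver 0 at ZT20 this sum was 16.1 FPKM, against 6.78 and 7.51 FPKM. At ZT0 it went the other way, with 9.49 FPKM in RE liver 2, highest for 6 members, and 12.1 FPKM in RE liver 1. The summed Kupffer cell markers were 118.5 FPKM in RE liver 0 at ZT8, against 40.0 and 56.4 FPKM, and 110.8 FPKM in RE liver 0 at ZT12, against 26.9 and 41.0 FPKM. Lymphocyte markers summed to 4.86 FPKM in RE liver 0 at ZT8, against 1.71 and 1.58 FPKM, and to 4.36 FPKM in RE liver 0 at ZT12, against 0.786 and 1.68 FPKM. KO liver 2 at ZT4, highest for all 7 as well, had the lowest Kupffer sum of its group, at 55.5 FPKM, against 61.5 and 62.7 FPKM. The part of these cells in the members' values was not tested.

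On the log2(FPKM + 1) scale, the spread within groups was wider in RE and KO. The added 1 FPKM narrows this spread most at low levels, and the subunits were lowest in WT. The part of the added 1 FPKM in the difference was not tested. For Mcm6 the within-group SD of log2(FPKM + 1) was 0.53 in RE, 0.61 in KO and 0.31 in WT. For Mcm5 it was 0.47 in RE, 0.56 in KO and 0.26 in WT, and for Pcna 0.23 in RE, 0.15 in KO and 0.10 in WT. Over all tested genes the median SD was 0.17 in RE, 0.14 in KO and 0.12 in WT.

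**Figure D4:**
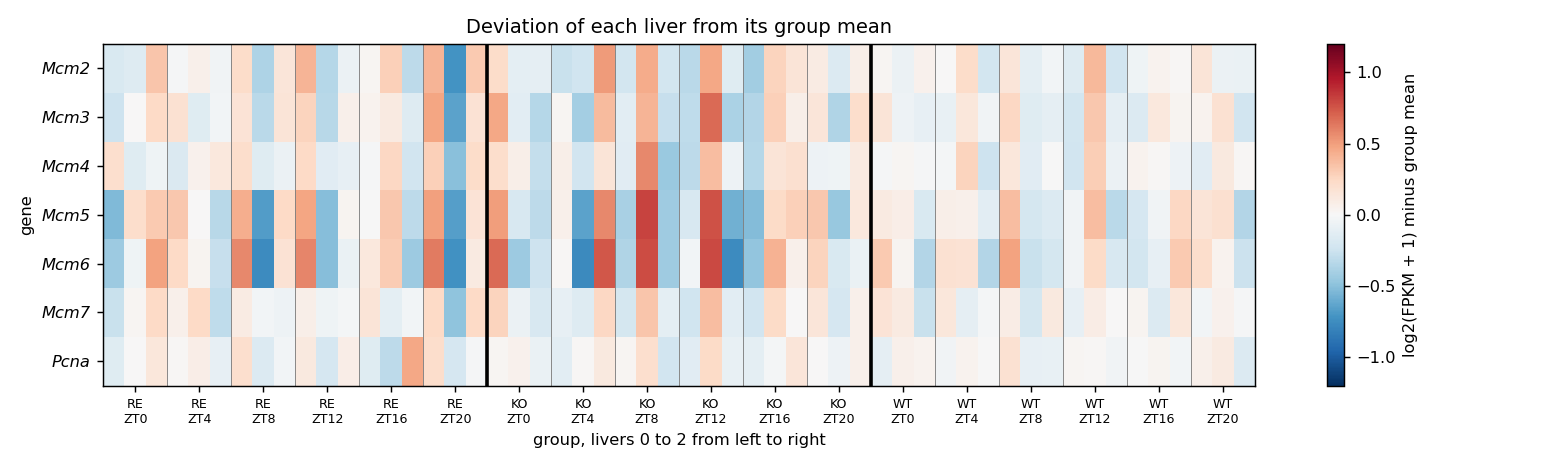
Each column is a liver (livers 0 to 2 of a group from left to right; RE, KO and WT blocks divided by black lines), and colour gives log2(FPKM + 1) minus the mean of its group. Columns tend to be of 1 colour from Mcm2 to Pcna, as in KO at ZT8 and ZT12 and in RE at ZT20, and colours are paler in WT.

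The subunits moved together across groups and across livers of a group. Over the 18 group means, the 15 pairs of subunits had a median Pearson r of 0.94, from 0.83 for Mcm5 and Mcm7 to 0.98 for Mcm2 and Mcm3; Pcna with each subunit had a median of 0.63. With group means subtracted, over 54 libraries, the median was 0.75 for pairs of subunits and 0.46 for Pcna with each. Mcm5 and Mcm6 were the closest pair, at 0.95. All points share libraries, and depth or cell makeup common to a library enters each r.

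Among the genes most like the 7 members' mean over the 18 group means were Mre11a (r = 0.93), Ipo9, Mdc1, Prim1, Primpol, Cenpq, Rpa1, Timeless and Rrm1 (0.88). With group means subtracted, over 54 libraries, they were Tuba1b (r = 0.82), Tcf19, Chaf1a, Aaas, Hat1, Lig1, Cdt1, Prim1, Pold1 and Gins2 (0.73). Prim1, the small primase subunit, was in both lists. Chaf1a, the large subunit of the factor that places histones behind the fork, was the gene most like Mcm2, Mcm3, Mcm5 and Mcm6 taken singly over 54 libraries (r from 0.83 to 0.87). Rpa1 was most like Mcm4 (r = 0.80), Prim1 most like Mcm7 (r = 0.80) and Topbp1 most like Pcna (r = 0.71). These are likenesses over libraries that share genotype and time effects.

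Mcm10, which is no subunit of the ring and helps to activate it, went the other way. It ranged from 0.542 to 16.6 FPKM in RE (median 4.14), from 1.46 to 7.22 FPKM in KO (median 2.83) and from 8.39 to 38.1 FPKM in WT (median 18.9). No KO liver reached the lowest WT liver. At ZT8 Mcm10 read 3.16, 2.48 and 13.0 FPKM in RE, 1.46, 2.91 and 7.22 FPKM in KO, and 22.9, 31.7 and 38.1 FPKM in WT. It fell by 1.86 in RE against WT (log2, SE 0.22, adjusted p 4.14e-09, limma) and by 2.27 in KO against WT (adjusted p 2.95e-11, limma). RE exceeded KO by 0.41 (SE 0.22), which was not called.

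The course of Mcm10 over the day also differed from that of the ring. WT means were highest at ZT8 (30.9 FPKM) and lowest at ZT0 (11.9 FPKM), without overlap, and RE means were highest at ZT12 (8.72 FPKM). The fitted amplitude was 0.53 in RE, 0.18 in KO and 0.59 in WT (log2), with none called; WT reached an adjusted p of 0.0835 and, fitted without the other genotypes, 0.000978 (limma). Without RE liver 2 at ZT16, at 0.542 FPKM beside 16.6 and 6.54 FPKM, Mcm10 was called rhythmic in RE (adjusted p 0.00631, limma). WT was called without that liver or without RE liver 0 at ZT16 (adjusted p 0.0286 at the lowest, limma). Of the other 4 relatives on the list, Mcmbp was tested and not called in level, and Mcm8, Mcm9 and Mcmdc2 stayed below the filter, at up to 0.971 FPKM.

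The other replication genes were read from 7 lists of 76 genes, of which 55 passed the filter. Some passed only through RE or KO groups, where they were high, so their rises are a description and not evidence. The highest WT liver was at 0.815 FPKM for Timeless, 0.760 FPKM for Pola1 and 0.807 FPKM for Chaf1a. For Cdc45 it was at 1.04 FPKM and for Gins2 at 1.03 FPKM. Against WT, 25 of the 55 were called higher and 4 lower in RE, with a median log2 difference of 0.11. The 4 were Mcm10, Rrm2, Tk1 and Dctpp1. In KO 34 were called higher and 5 lower against WT, with a median of 0.18, and Pole4 joined the same 4. Over all tested genes 24.2% were called higher and 21.7% lower in RE, and 22.1% higher and 20.2% lower in KO. The counts of each list below are to be read beside these shares. Between RE and KO 1 was called, Dbf4, an activator of the helicase kinase Cdc7, lower in RE; with RE and KO fitted alone, 0 were called. In rhythm, 33 of 55 were called in RE, 0 in KO and 15 in WT, where the shares over all tested genes were 46.8% in RE, 0.0366% in KO and 34.8% in WT.

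Rpa1, a subunit of the factor that coats the single strands made by the helicase, had the smallest adjusted p of these lists. It averaged 16.2 ± 3.03 FPKM in RE, 18.6 ± 2.41 FPKM in KO and 10.4 ± 0.959 FPKM in WT (SD, n = 18 each), a rise of 0.58 in RE (log2, SE 0.05, adjusted p 9.24e-12, limma) and 0.78 in KO (adjusted p 1.90e-15, limma). Among clamp loading and lagging strand genes, 6 of 14 rose in RE and 9 of 14 in KO against WT. Rfc5, a subunit of the complex that loads Pcna, rose by 0.49 in RE and 0.66 in KO, and Rfc4 by 0.45 in RE and 0.53 in KO.

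Of the genes that activate the helicase and hold the fork, 6 of 9 rose in RE and 8 of 9 in KO against WT, with none lower. Cdc45, the partner that turns the ring on, rose by 0.27 in RE (SE 0.07), and Gins1 by 0.26 in RE and 0.40 in KO. Cdc45, Gins2 and Timeless, which are counted here, averaged 0.623, 0.483 and 0.553 FPKM in WT. Their rises and these counts are therefore a description and not evidence. The same holds for the counts below that include Pola1 and Chaf1a. Of origin recognition and licensing genes, Orc5, Orc6 and Cdt1 rose in both RE and KO (3 of 7), and Orc1 and Cdc6 stayed below the filter, at up to 0.252 FPKM. Of the polymerases and primase, 5 of 10 rose in RE, and 5 rose and 1 fell (Pole4) in KO; Prim1 rose by 0.44 in RE and 0.57 in KO. Of chromatin assembly genes, 1 of 5 rose in RE (Chaf1a, by 0.22), near the share of 24.2% over all tested genes. In KO 4 of 5 rose (Chaf1a by 0.35).

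Deoxynucleotide supply was divided. Against WT, 4 of 8 genes rose and 3 fell in RE, and 5 rose and 3 fell in KO. Rrm1, the large subunit of ribonucleotide reductase, averaged 3.62 FPKM in RE, 3.83 FPKM in KO and 2.67 FPKM in WT and rose in both. Rrm2, the small subunit of the same enzyme, averaged 1.82 FPKM in RE, 2.37 FPKM in KO and 4.34 FPKM in WT, and fell by 0.84 in RE (log2, SE 0.12, adjusted p 3.90e-07, limma). Tk1 and Dctpp1, which salvage and clear nucleotides, also fell in both genotypes.

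The E2F, RB and G1 to S list had 5 of 22 genes higher and 5 lower in RE, and 6 higher and 4 lower in KO, against WT, close to the shares over all genes. Cdkn1a, an inhibitor of cyclin-dependent kinases whose protein also binds Pcna, had the largest rise of this list, 2.69 in RE (log2, SE 0.20, adjusted p 1.12e-14, limma) and 2.28 in KO (adjusted p 1.36e-12, limma). Its median was 27.0 FPKM in RE (6.12 to 166.2), 19.6 FPKM in KO (7.37 to 47.2) and 3.13 FPKM in WT (0.488 to 10.2). Ccnd1, the cyclin that opens G1, fell by 1.07 in RE and 0.92 in KO.

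Genes of G2 and mitosis were mostly out of reach. Of 22 listed, 15 stayed below the filter, Mki67 and Top2a among them, with no group mean above 0.839 FPKM. Mki67 averaged 0.146 ± 0.0936 FPKM in RE, 0.285 ± 0.250 FPKM in KO and 0.159 ± 0.0694 FPKM in WT (SD, n = 18 each). Of the 7 tested, Aurka rose in RE, and Aurka and Cdc20 rose in KO. These counts were near the shares over all tested genes, 24.2% in RE and 22.1% in KO. Cdc20 had a median of 0.454 FPKM in RE, 0.614 FPKM in KO and 0.377 FPKM in WT, and a highest value of 1.36 FPKM in RE, 6.88 FPKM in KO and 1.09 FPKM in WT. The summed mitosis genes stood apart in KO liver 1 at ZT12 (46.2 FPKM) and KO liver 2 at ZT16 (36.5 FPKM), against at most 20.4 FPKM in any other library. Among PCNA's partners in repair and bypass, 3 of 11 rose in RE, near the share of 24.2% over all tested genes, and 5 rose and 1 fell (Rev1, a bypass polymerase) in KO.

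**Figure D5:**
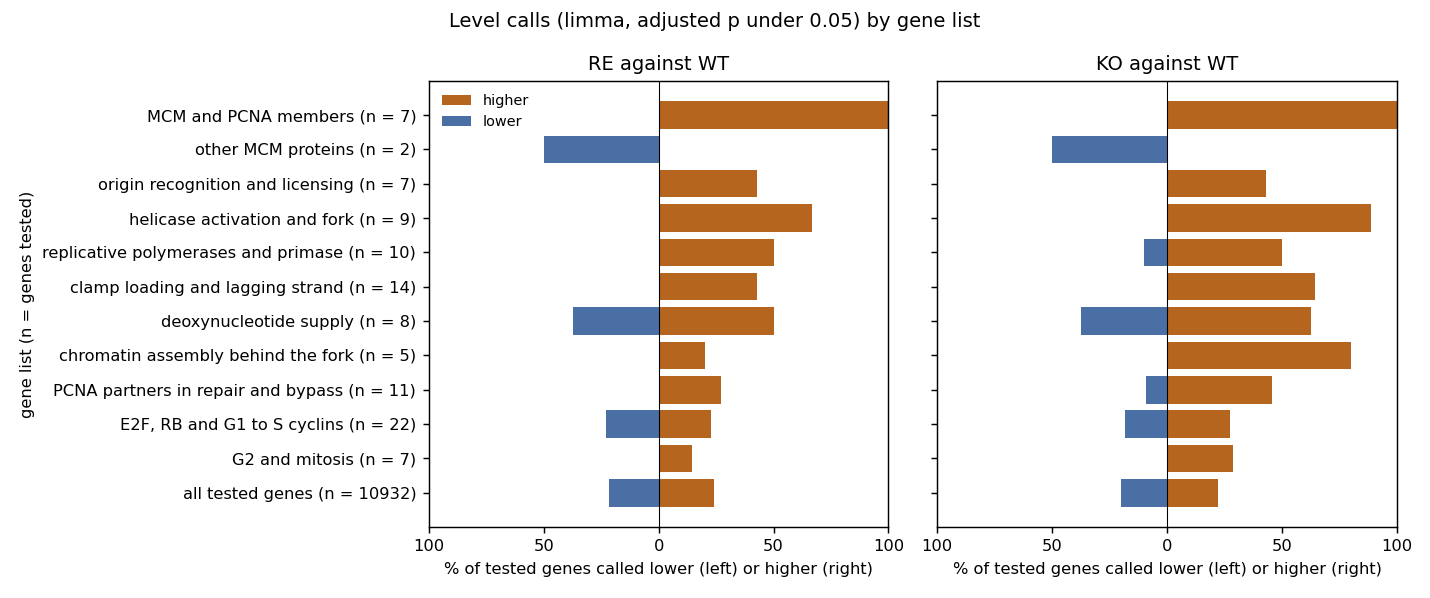
Share of each list's tested genes called lower (blue, to the left) or higher (orange, to the right) in RE against WT and in KO against WT, with all 10932 tested genes as the last row; n is the number of genes tested. Helicase activation genes reach 6 of 9 in RE and 8 of 9 in KO, and the nucleotide supply row has bars on both sides. Some genes passed the filter only through RE or KO groups, where they were high, so the shares are a description.

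In rhythm, several of these genes were called in RE near the peak of the subunits. Pold1, the catalytic subunit of polymerase delta, had an amplitude of 0.32 in RE with a peak at ZT0.61 (adjusted p 0.000163, limma), Dnmt1 0.25 at ZT0.56, Timeless 0.23 at ZT0.05 and Chaf1a 0.27 at ZT1.70. Others peaked at different times, with Orc4 at ZT16.2 and Nasp at ZT16.6. The rhythm differed between RE and KO for 5 of the 55 genes, Timeless, Topbp1, Pold1, Rfc3 and Dnmt1, and between RE and WT for 11, where 3.07% of all tested genes were called for RE and KO and 14.1% for RE and WT. In WT, Rrm2 had an amplitude of 0.72 with a peak at ZT12.2, Tk1 0.50 at ZT15.8 and Gmnn, the inhibitor of Cdt1, 0.39 at ZT9.89.

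By position (mm10), Mcm6 lies at chr1:128331590-128359664, Mcm3 at chr1:20802968-20820312, Mcm2 at chr6:88883474-88898780 and Mcm4 at chr16:15623897-15637400, all on the minus strand. Mcm5 lies at chr8:75109569-75128439 on the plus strand, Mcm7 at chr5:138164583-138172422 and Pcna at chr2:132249162-132253314 on the minus strand. Some share borders with other genes, and the counting of reads by strand is not given in the sources used here. Mcm7 overlaps Cops6, on the other strand, by 64 bases, and Cops6 stood at 169 FPKM in RE, 163 FPKM in KO and 98.6 FPKM in WT, a rise of 0.77 in RE and 0.72 in KO (log2). Mcm7 also overlaps Ap4m1 by 421 bases, at 3.56 FPKM in RE, 3.62 FPKM in KO and 3.41 FPKM in WT. The part of the Mcm7 values that such reads make up was not tested. The microRNA genes Mir25, Mir93 and Mir106b inside Mcm7 were listed at 0 in all 54 libraries. Prkdc starts 466 bases from Mcm4 on the other strand and stood at 0.985 FPKM in RE, 0.883 FPKM in KO and 0.620 FPKM in WT.

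Markers of other liver cells were read beside these results. Over all tested genes 24.2% were called higher and 21.7% lower in RE against WT, and 22.1% higher and 20.2% lower in KO. The summed FPKM of 6 Kupffer cell markers ranged from 26.9 to 119 in RE (median 46.2), from 36.4 to 132 in KO (median 62.2) and from 57.8 to 132 in WT (median 74.8), with 6 of 6 called lower in RE and 3 of 6 in KO. Summed lymphocyte markers, 8 genes of which 5 stayed below the filter, ranged from 0.735 to 5.26 in RE, from 1.88 to 6.78 in KO and from 1.88 to 8.61 in WT. Red cell precursor markers (3 of 5 tested) ranged from 59.7 to 251 in RE, from 79.1 to 611 in KO and from 144 to 768 in WT. The medians of these 3 sums were lower in RE than in WT. Within RE at ZT0, ZT8, ZT12 and ZT16 the liver highest in most members was also highest in the Kupffer and lymphocyte sums. At ZT20 this held for the Kupffer sum only, and at ZT4 no liver led in most members. In KO the liver highest in at least 6 members led in the Kupffer sum at ZT12, but not at ZT0, ZT4 or ZT8. In WT such a liver led in it at ZT8 but not at ZT12. A liver highest in at least 6 members also led in the summed G2 and mitosis genes at ZT8, ZT12 and ZT20 in RE. The same held at ZT0, ZT8 and ZT12 in KO and at ZT8 and ZT12 in WT, but not at ZT0 in RE or ZT4 in KO. The part of these cell types, or of dividing cells, in the members' values was not tested. Endothelial markers had median sums of 47.5 in RE, 46.9 in KO and 53.9 in WT, and stellate cell markers 71.4 in RE, 78.8 in KO and 71.6 in WT. Bile duct markers ranged from 20.7 to 149 in RE (median 64.2), from 26.0 to 171 in KO (median 68.9) and from 18.1 to 127 in WT (median 27.5). Sox9 and Spp1 (2 of 5) were called higher in both. Krt7, Krt19 and Epcam lay below WT in both and were not called. The median log2 difference of the 5 was -0.12 for RE minus WT and -0.16 for KO minus WT. The part of bile duct cells in the members' values was not tested. Gut epithelium markers ranged from 20.5 to 154 in RE, from 41.7 to 117 in KO and from 81.2 to 287 in WT, with 3 of 6 tested called lower in RE and 5 in KO, and with Cdx1 listed at 0 in all KO livers.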

How the data were processed

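Liver RNA-seq of 54 libraries was analysed in 18 groups of 3. The authors deposited 1 table of FPKM values per gene symbol. Reads were aligned to mm10 with TopHat, per the submitters' processing notes; the sources used here do not give the counter, its version or its strand setting. Table columns carry liver numbers of their own and were assigned to groups by genotype and time. FPKM hold no counts; relative depth was read from the steps of low values, and its error was not estimated.

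FPKM were transformed to log2(FPKM + 1). Genes with a group mean of at least 1 FPKM in any group were kept (10932 of 24346). limma 3.58.1 (R 4.3.3) was fitted to all 54 libraries, with a mean for each of the 18 groups and a trended prior (36 residual degrees of freedom). Tests were two-sided, with Benjamini-Hochberg adjustment over all genes tested, and calls had an adjusted p under 0.05. Levels were contrasts of the mean of 6 time means, and rhythms moderated F tests of cosine and sine contrasts of 24 h. The fit was tested on simulated data. Ranges, ratios and correlations were computed in Python 3.11.15 with pandas 2.3.3. Promoters came from RefSeq (GRCm38.p6) and gene spans from GENCODE on mm10.

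The members, gene lists and tests were chosen with earlier results of these data known. Named were all members, up to 3 genes per list and comparison of smallest adjusted p among those called, genes most alike, and neighbours. Others named (Dbf4, Tk1 and Dctpp1 in level, Mki67, Top2a, Orc1, Cdc6, Nasp, the abundant Rrm1, and all genes given as a whole count) were chosen after their values were seen. Some genes that this rule names are not reported here. Alternatives were adding 0.1 FPKM, testing all genes or those above 5 FPKM, median centring, no trend, genotypes fitted alone, any difference among times, and each library left out.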

Additional observations from a re-analysis of the deposited data

Results flagged for a closer look

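Differences in the fitted 24 h rhythm between genotypes were called for the following members, with sizes as vector differences of the cosines (log2). Between RE and KO they were 1.03 for Mcm6, 0.85 for Mcm5, 0.69 for Mcm3, 0.68 for Mcm2 and 0.54 for Mcm4. Between RE and WT it was 0.55 for Mcm2. Each was tested as a difference of rhythms in 1 fit of all 54 libraries. None of the 5 differences between RE and KO was called with these genotypes fitted alone or in the test of any difference in course. The fitted peaks of these 5 genes lay between ZT22.9 and ZT1.54 in RE and between ZT14.6 and ZT17.1 in KO. None of the 5 was called rhythmic in KO, so the KO peaks are those of cosines that were not called.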

How the results depend on the processing

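All 14 level calls of the members against WT kept direction and side of the threshold under each alternative that tested all 7, and no result reversed. The filter at 5 FPKM left too few members tested for a count. Counts of members called in rhythm or rhythm difference changed as follows. For rhythm in RE, 6 of 7 were called with RE livers alone. For rhythm in KO, 1 was called without KO ZT8 liver 1 and KO ZT12 liver 1 together, and 0 to 1 with single livers left out. For rhythm in WT, 0 were called in the test of any time difference. For the rhythm difference of RE and WT, 2 were called with no trend, 5 with the genotypes compared alone, 0 in the test of any time difference, 5 without the pair of KO livers, and 0 to 4 with single livers left out (0 without WT liver 1 at ZT12). For that of RE and KO, 4 were called with no filter, 0 with the genotypes compared alone, 0 in the test of any time difference, and 3 to 5 with single livers left out (3 without KO liver 1 at ZT4). Fits of genotypes alone have fewer samples, and they take the spread from the genotypes compared only. The main fit uses a spread shared by all genotypes. Why the counts changed was not tested. Median centring changed no member's call. The other replication genes gave 24 to 29 higher in RE against WT, and 34 to 42 in KO, over settings other than the filter at 5 FPKM, which tested 29 of them and called 10 higher in RE and 14 in KO. No paired analysis was possible because the table's columns carry liver numbers of their own, which are not the replicate numbers of the sample titles. Low subunits, near 1 FPKM, are imprecise, and with no counts deposited no counting interval can be given.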
